A study of Mus musculus with 5 samples.

Results

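The genes described here were 10 members of the mouse fibroblast growth factor (FGF) system, namely the ligands Fgf4, Fgf5, Fgf8, Fgf10, Fgf15 and Fgf17 and the receptors Fgfr1, Fgfr2, Fgfr3 and Fgfr4. The family was chosen by name and with its signals on these same arrays known, so its values are given as a description. Probes were assigned to genes through the RefSeq record printed beside each probe. Of the 10 genes, 9 had a probe (5 ligands and 4 receptors, 16 of the 41174 gene probes), and all 9 were well above background on at least 1 array. Over the whole array 18327 genes were named in the same way, and 15446 of them were well above background on at least 1 array. No probe was assigned to Fgf4, which is only named.

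FGF ligands are secreted proteins that bind receptor tyrosine kinases together with heparan sulfate chains on the cell surface. The bound receptor signals through adaptor proteins to the RAS-ERK cascade, which in turn switches on feedback inhibitors of the Sprouty and dual-specificity phosphatase families. In the early mouse embryo, FGF-ERK signalling moves pluripotent cells from the naive state to the primed epiblast and patterns the primitive streak. In the adult, Fgf15 (the mouse counterpart of human FGF19) is a gut hormone that lowers bile acid synthesis in hepatocytes through Fgfr4 and its co-receptor beta-klotho.

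Gene expression was measured on 5 one-colour Agilent oligonucleotide arrays, 1 for each condition. ES was the mouse embryonic stem cell line E14, and Hepa1-6 was a mouse hepatoma line. EHe was a line of hybrid cells made by fusing these, and EHeD7 and EHeD14 were EHe cells after 7 and 14 days of differentiation. ES and EHe had been grown with 10% serum replacement, 1% fetal bovine serum and leukemia inhibitory factor (LIF) at 1000 units/ml. Hepa1-6 had been grown with 10% fetal calf serum. Per the labels the differentiating cells were on gelatin in 15% fetal calf serum with no LIF listed, so medium and state changed together. According to the methods of the study, the ES cells carried red fluorescent protein and hygromycin resistance from a lentivirus with an EF-1α promoter, the hepatoma cells carried green fluorescent protein and neomycin resistance, and hybrids were picked as single colonies after polyethylene glycol fusion and double selection. Which colony was on the array is not given in the sources used here.

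No condition had a replicate, so there was no test, and every difference below compares arrays rather than conditions. A signal is the background-corrected brightness of a probe in scanner units, and a difference is taken on the log2 scale after each array was set to its 75th percentile (1087 in ES to 1456 in Hepa1-6). A gene was called higher or lower when it differed by over 3-fold with the brighter side well above background. Where the dimmer side was not well above background, the fold was computed against the lowest signal well above background on that array, or the probe's own signal if that was higher, and is given as "at least". That limit lay between 18.3 in EHeD7 and 45.1 in EHe. The only repeated measurement was of spots on 1 array, where the 245 probes printed 10 times had a median standard deviation (SD) of 0.0920 (EHeD7) to 0.139 (ES) on the log2 scale. ES, EHe, EHeD7 and EHeD14 shared a slide and Hepa1-6 was alone on another, so slide and hepatoma cannot be told apart.

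The labels were checked against marker genes. Pou5f1 (Oct4), the pluripotency factor, had signals of 14594 in ES, 21296 in EHe, 27691 in EHeD7 and 24111 in EHeD14, and was not well above background in Hepa1-6. It thus did not tell the differentiated samples from ES and EHe. The liver proteins Alb (97125) and Afp (159094) marked Hepa1-6. Alb was not well above background on the other 4 arrays and Ttr, a liver transport protein, was not well above background in Hepa1-6 either. The choice of scaling mattered for the hepatoma: the median Hepa1-6 minus ES difference over all genes was -0.49, and 0.29 when each array was centred on its median instead.

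Fgf5, Fgf8 and Fgf15 were the members that were higher in the differentiated hybrid. They were called higher than EHe at day 7 and again at day 14, and no member was called lower at either day. Over all genes tested, 6.71% were called higher and 4.09% lower at day 7, and 6.77% and 4.38% at day 14. The same EHe array served both comparisons, so the 2 days are not separate evidence.

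Fgf5, a ligand known as a marker of the primed epiblast and as a brake on hair growth, gave a signal of 45.9 in ES, 11.2 in EHe, 6608 and 10559 at days 7 and 14, and 7.91 in Hepa1-6. Its probe was well above background in ES and in both differentiated samples, and not in EHe or Hepa1-6. It was at least 145-fold higher than EHe at day 7 and at least 227-fold higher at day 14. The difference between the days was 1.56-fold (0.65 on the log2 scale), on a probe printed once. The bounds, 7.18 and 7.82 on the log2 scale, were 6.56 and 7.21 with a detection limit at the 5th percentile and 5.98 and 6.71 with the normexp background. The error that the scanner software gave for the spot was 10.0% at both days and 17.2% in ES.

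The bases upstream of the Fgf5 start site are shown because this gene had the widest range of the members over the arrays, and those of Fgfr4 because it was the only member called higher in the hepatoma than in ES. They are the 250 bases before the RefSeq start site in the GRCm38.p6 build, on the plus strand, at chr5:98253934-98254183 for Fgf5 and chr13:55152568-55152817 for Fgfr4. The arrays measured RNA and not these bases. Capitals mark the matches described next, where TTCCGG and CCGCCC are matches read on the other strand.
Fgf5: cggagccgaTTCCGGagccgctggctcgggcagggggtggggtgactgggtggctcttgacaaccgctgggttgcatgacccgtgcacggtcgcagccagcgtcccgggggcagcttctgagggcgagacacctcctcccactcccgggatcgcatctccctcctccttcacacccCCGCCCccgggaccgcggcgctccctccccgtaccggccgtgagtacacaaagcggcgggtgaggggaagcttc
Fgfr4: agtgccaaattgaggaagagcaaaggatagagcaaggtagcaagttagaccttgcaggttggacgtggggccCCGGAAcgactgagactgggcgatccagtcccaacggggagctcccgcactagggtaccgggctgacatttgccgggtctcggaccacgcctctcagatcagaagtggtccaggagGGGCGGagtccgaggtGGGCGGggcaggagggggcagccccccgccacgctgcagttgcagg

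Both windows were rich in G and C, with 70.8% and 24 CpG dinucleotides for Fgf5 and 64% and 15 for Fgfr4, beside medians of 52.4% and 6 over the 32851 RefSeq windows of the same length. Of 9 motifs searched on both strands, 2 had a match in each window. The GC box (GGGCGG) matched once for Fgf5, starting at -74 from the start site, and 2 times for Fgfr4, the farther starting at -62. It was found in 32.7% of all windows. The ETS core (CCGGAA), the binding letters of a family of factors that act below ERK, matched once in each, at -241 and -178, and was found in 12% of all windows. The others had no match in these windows: the TATA box (TATAAA), the CCAAT box (CCAAT), the octamer (ATTTGCAT), the E-box (CACGTG), AP-1 (TGANTCA), FOXA (TGTTTAC) and HNF4 (CAAAGTCCA). Windows of this kind were at hand for 6 of the 10 genes.

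Fgf8, a ligand needed for cell movement out of the primitive streak and for brain patterning, was printed 10 times on each array (8 of the spots were used in ES). Its signal was 93.9 in ES and 61.0 in Hepa1-6, 124 in EHe, and 1098 and 2384 after 7 and 14 days. It was 8.78-fold higher than EHe at day 7 and 18.7-fold higher at day 14. The single spots lay between 111 and 145 in EHe, between 986 and 1160 at day 7 and between 2195 and 2522 at day 14, so these arrays did not overlap in any spot. On the log2 scale the differences were 3.13 and 4.22, and with the normexp background 2.41 and 3.48. Day 14 was 2.13-fold above day 7. A second Fgf8 probe, printed once and dimmer, was well above background only at day 7 (109) and day 14 (221) and gave at least 2.39-fold and at least 4.74-fold, with 1.98-fold between the days.

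Fgf15 gave a signal of 193 in ES, 94.0 in EHe, 2715 and 1827 at days 7 and 14, and 69.8 in Hepa1-6, well above background on all 5 arrays. It was 28.6-fold higher than EHe at day 7 and 18.8-fold higher at day 14, which is 4.84 and 4.23 on the log2 scale and was 3.97 and 3.14 with the normexp background. Unlike Fgf5 and Fgf8 it was lower at day 14 than at day 7, by 1.52-fold. Both differentiated samples thus lay far above the 3 other arrays.

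**Figure D1:**
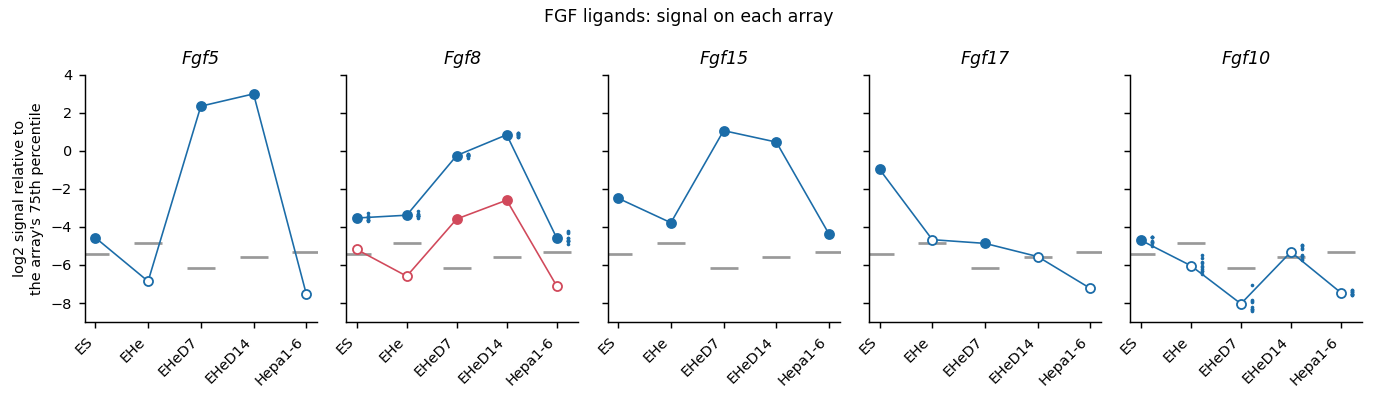
Signal of each FGF ligand on the 5 arrays, as log2 relative to the 75th percentile of the array. Filled points were well above background, open points were not, small dots are single spots of probes printed 10 times, the red line is the second Fgf8 probe, and grey bars mark the lowest signal well above background. Fgf5, Fgf8 and Fgf15 stand high only in EHeD7 and EHeD14, and Fgf17 only in ES.

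Fgf17, a close relative of Fgf8, stood high on the ES array alone. Its signal was 553 in ES and 9.68 in Hepa1-6, 50.8 in EHe, and 44.8 and 28.3 after 7 and 14 days, and besides ES it was well above background only in EHeD7. It was at least 13.0-fold lower in EHe than in ES and at least 20.1-fold lower in Hepa1-6 than in ES. These bounds were -3.70 and -4.33 on the log2 scale, and became -3.25 and -3.73 with a detection limit at the 5th percentile and -2.01 and -2.38 with the normexp background. Against EHe no fold could be given at either day of differentiation.

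Fgf10, a ligand of limb and lung budding, was near the background throughout. Its signal, from 10 printed spots, was 41.8 in ES, 19.7 in EHe, 4.98 and 33.5 at days 7 and 14, and 8.30 in Hepa1-6. In ES 8 of the 9 spots used were well above background and at day 14 5 of 10, while no spot was on the other 3 arrays. With dim sides set to the limit, no difference of Fgf10 passed 3-fold.

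None of the 4 receptors was called at day 7 or day 14. Fgfr1, the receptor that carries most FGF signalling in embryonic stem cells, gave a signal of 192 in ES and 124 in Hepa1-6, 337 in EHe, and 679 and 544 after 7 and 14 days. It was 1.99-fold above EHe at day 7 and 1.56-fold at day 14. The other 2 probes of the gene gave 2.39-fold and 2.53-fold at day 7 and 1.87-fold and 2.07-fold at day 14. All 3 probes were thus highest at day 7 and next highest at day 14. They disagreed on Hepa1-6 against ES, where the main probe was 2.07-fold lower, another 1.49-fold higher and the last one, not well above background in Hepa1-6, at least 1.58-fold lower.

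Fgfr2, the epithelial receptor of Fgf10 and relatives, gave a signal of 104 in ES, 93.9 in EHe, 46.8 and 56.2 at days 7 and 14, and 23.4 in Hepa1-6, where it was not well above background. It was 2.03-fold lower than EHe at day 7 and 1.73-fold lower at day 14. The other 2 probes were not well above background on any array.

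Fgfr3 was the flattest of the members, with a range of 0.47 on the log2 scale over the arrays. Its signal was 859 in ES and 829 in Hepa1-6, 871 in EHe, and 783 and 810 after 7 and 14 days. A second probe lay between 598 and 719 on the 5 arrays, and the last probe was not well above background on any. On the main probe the Fgfr3 differences from EHe at day 7 and day 14 were close to the median spot SD, at -0.17 and -0.15 on the log2 scale. The second probe gave larger differences, at -0.25 and -0.27.

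Fgfr4, the main FGF receptor of hepatocytes, gave a signal of 640 in ES, 471 in EHe, 681 and 428 at days 7 and 14, and 4525 in Hepa1-6. The hepatoma stood alone and the 4 other arrays lay within a factor of 2. Fgfr4 was 1.43-fold above EHe at day 7 and 1.14-fold below it at day 14.

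**Figure D2:**
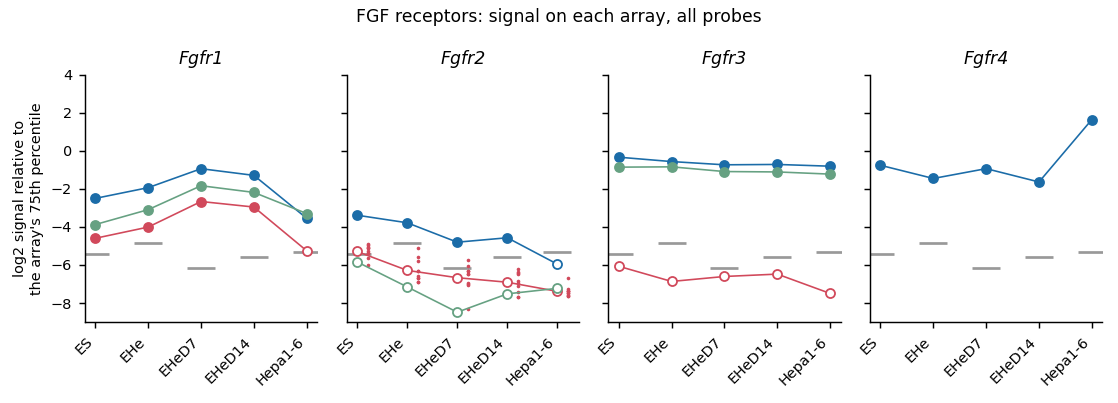
Signal of the FGF receptors on the 5 arrays, as log2 relative to the 75th percentile of the array, with 1 line for each probe. Blue lines are the probes used for the gene, red and green lines its other probes, filled points were well above background, open points were not, and grey bars mark the lowest signal well above background. Fgfr1 peaks at EHeD7, Fgfr3 is flat, and Fgfr4 stands high in Hepa1-6.

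Between the parents, Fgfr4 was the member called higher in Hepa1-6 than in ES, by 5.28-fold, and Fgf15 (3.69-fold), Fgf17 (at least 20.1-fold) and Fgfr2 (at least 3.78-fold) were called lower. This made 1 of 9 higher and 3 of 9 lower, where 13.1% of all genes tested were called higher and 20.9% lower. With the arrays centred on their medians those shares were 21.6% and 12.0%, and Fgf17 was the only member still called lower, with Fgf15 then at -1.10 and Fgfr2 at -1.14 on the log2 scale. Their calls were lost with quantile normalization and the normexp background too, and that of Fgfr2 also with a detection limit at the 5th percentile (-1.32). Fgfr4 was at 2.40 in the main scaling and 3.18 with the arrays centred on their medians. Fgf5 and Fgf10, whose ES signals were within 2-fold of the detection limit of that array, were not called.

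The undifferentiated hybrid was compared with each parent. Against ES, 1 of 9 members was called lower (Fgf17) and 0 higher, beside 3.22% and 2.36% of all genes. Fgf15 was 2.44-fold lower in EHe than in ES, Fgfr4 1.62-fold lower and Fgfr1 1.48-fold higher, none past the threshold. Against Hepa1-6, Fgfr4 was 8.53-fold lower in EHe and Fgfr1 3.05-fold higher, 1 of 9 each way, beside 12.8% lower and 17.9% higher over all genes (20.2% and 11.5% with median centring). The Fgfr1 call was near the threshold. Its other probes gave 1.15-fold and at least 2.38-fold, and the call was lost with median centring (0.94 on the log2 scale), quantile normalization (1.10), the normexp background (1.03) and the mean of its probes (1.02).

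Between the 2 days of differentiation no member was called, beside 0.492% of all genes higher and 0.641% lower at day 14. Fgf8 was the only member that passed 2-fold, as did 1.26% of all genes in that direction. Of the genes well above background on both arrays, 97.8% differed by under 2-fold. Against its hepatoma parent, the day 14 hybrid had 4 of 9 members higher and 1 lower, beside 17.6% and 12.2% of all genes (11.1% and 22.9% with median centring). Fgf5 was at least 313-fold higher, Fgf8 42.7-fold, Fgf15 28.5-fold and Fgfr1 4.77-fold, and Fgfr4 was 9.69-fold lower. The other Fgfr1 probes gave 2.16-fold and at least 4.92-fold, and the Fgfr1 call, at 2.25 on the log2 scale, was lost with median centring (1.43) and the normexp background (1.51). The sizes of the ligand differences moved as well, with normexp giving 6.84 for Fgf5, 3.99 for Fgf8 and 3.33 for Fgf15 on the log2 scale, beside 8.29, 5.41 and 4.84.

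**Figure D3:**
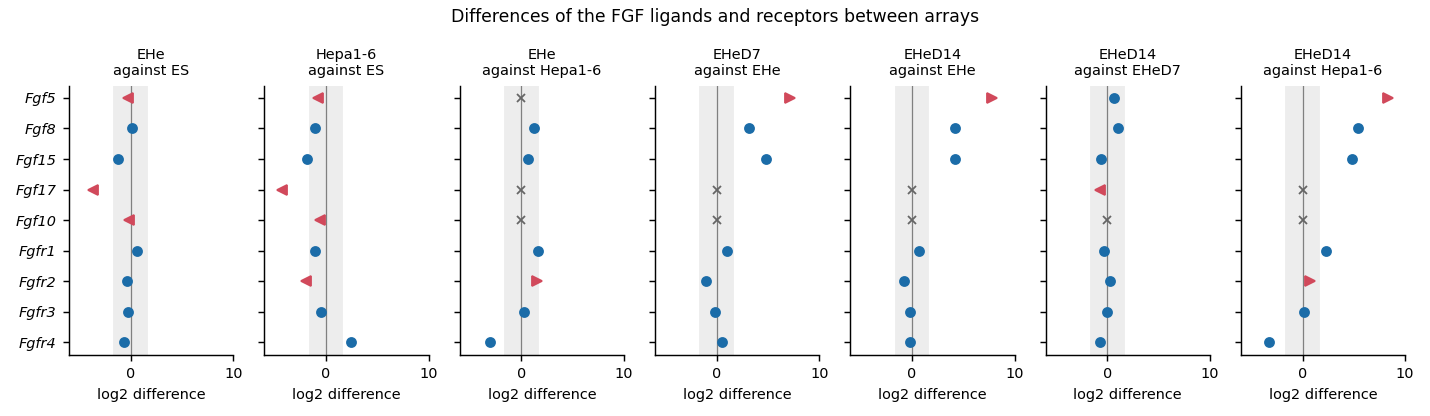
Log2 difference of each member in the 7 comparisons, with the first-named array on the higher side when the value is above 0. Circles are measured differences, triangles are bounds against the detection limit, crosses mark pairs with no fold, and the grey band is 3-fold. Fgf5, Fgf8 and Fgf15 lie right of the band at both days against EHe while every receptor lies inside it.

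The other genes of the pathway were taken as 5 lists of 86 genes in all, of which 85 had a probe (Dusp5 had none) and 77 were well above background on at least 1 array. At day 7, 10 were called higher than EHe and 3 lower, and at day 14 9 and 3. Of the 77, 9 were called higher and 3 lower at both days, beside 5.65% and 3.37% of all genes. Median differences below are as measured, dim signals included, where the median of all genes was -0.08 at day 7 and -0.05 at day 14. Genes below the limit on both arrays have no measured order, and with dim sides set to the limit, and such pairs at 0, the median of all genes was 0.00 at both days.

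Among the 16 other FGF ligands, 10 were well above background somewhere and only Fgf1 was called at either day, lower at both. Fgf1, an acidic FGF that binds all the receptors, gave a signal of 18.8 in ES and 290 in Hepa1-6, 175 in EHe, and 4.39 and 6.98 after 7 and 14 days. It was well above background in EHe and Hepa1-6 only. It was at least 5.79-fold higher in EHe than in ES and at least 6.35-fold lower at day 14 than in EHe. The list had a median of 0.80 at day 7 and 0.72 at day 14 as measured and of 0.00 at both days with dim sides at the limit.

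Of the 18 co-receptors and binding proteins, 16 were well above background, 3 were called higher and 1 lower at both days, with medians of 0.54 and 0.63 (0.40 and 0.63 with dim sides at the limit). Klb (beta-klotho), the co-receptor through which Fgf15 acts on Fgfr4, gave a signal of 558 in ES, 5580 in EHe, 1026 and 577 at days 7 and 14, and 148 in Hepa1-6. Klb was thus highest in the undifferentiated hybrid, 8.41-fold above ES, and 9.98-fold lower at day 14. In EHe its signal stood beside a Fgf15 signal that was the lowest of the 4 arrays on that slide. In Hepa1-6 the signals of Klb (148) and Fgf15 (69.8) were both the lowest of the 5 arrays. For Fgf15 that rank depended on the scaling. Its EHe minus Hepa1-6 difference was 0.60 on the log2 scale, but -0.07 with median centring and -0.09 with quantile normalization. The cell surface heparan sulfate proteoglycans Sdc4 and Gpc4 were 7.31-fold and 5.20-fold higher at day 14, and Fgfbp3, a carrier that frees FGFs from the matrix, was at least 5.96-fold higher. Sdc2, another syndecan, was 10.1-fold above ES in Hepa1-6 and 1.68-fold above EHe at day 14.

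All 14 genes of heparan sulfate synthesis and editing were well above background, and only Hs6st2, which adds 6-O-sulfate, was called at either day. Hs6st2 gave a signal of 47.5 in ES and 7.97 in Hepa1-6, 361 in EHe, and 2185 and 2139 after 7 and 14 days, and was 5.74-fold higher at day 14. The list had a median of 0.15 at day 7 and -0.01 at day 14 (0.06 and -0.01 with dim sides at the limit). Between the parents, the sulfatase Sulf1 was at least 84.2-fold lower and the sulfotransferase Hs3st1 12.6-fold higher in Hepa1-6.

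Of the 19 receptor adaptors and members of the RAS-ERK cascade, all were well above background and 1 was called, with a median of -0.16 at both days in either form. This was Gab1, a docking protein that links the receptors to PI3-kinase and SHP2. It gave a signal of 5714 in ES, 9349 in EHe, 2188 and 898 at days 7 and 14, and 397 in Hepa1-6, and at day 14 its difference from EHe was -3.43 on the log2 scale.

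The 19 targets and feedback inhibitors held the most calls. Of the 18 with a probe, 6 were called higher at day 7 and 5 at day 14, with none lower. Over all genes 6.71% and 6.77% were called higher. At day 7 the calls of Myc (3.03-fold), Fos (at least 3.03-fold) and Fosl1 (at least 3.02-fold) lay at the threshold. The list had medians of 0.90 and 0.94 (0.56 and 0.63 with dim sides at the limit). Dusp4, a phosphatase that shuts off ERK, gave a signal of 750 in ES and 12181 in Hepa1-6, 483 in EHe, and 4393 and 5584 after 7 and 14 days, and was 11.2-fold higher at day 14. The immediate early factors Egr1 and Fos were 4.74-fold and at least 3.73-fold higher, Myc 4.72-fold and the stress response gene Ier3 3.19-fold. Myc had been 5.34-fold lower in EHe than in ES, and its day 14 signal (1482) was near that of ES (1367). The supplement of the study lists a second Myc entry, whose differences go the same way but stay under 3-fold. The sizes given for Myc therefore hold for the probe used here only. These called genes are also known to answer to serum, which by the labels went from 1% to 15% in the same samples. The methods of the study instead list serum replacement and no serum for differentiation. The part of serum in the result was not tested. With the normexp background 2 of the list were called higher at day 7 and 3 at day 14, and with median centring or quantile normalization 3 at day 7. Several feedback inhibitors and ETS factors did not pass the threshold at either day. Higher by less than that at day 14 were Spry1 (2.19-fold, after 2.64-fold at day 7), Il17rd (2.00-fold), Etv4 (1.84-fold) and Dusp6 (1.29-fold). So were Spry4 (1.20-fold), Spry2 (1.06-fold) and Etv5 (1.02-fold). Below EHe at day 14 were Spred2 (2.10-fold), Dusp9 (1.90-fold), Etv1 (1.87-fold) and Spred1 (1.58-fold). Between the parents, Fosl1 (56.0-fold) and Egr1 (20.2-fold) were higher and Etv1 (at least 37.3-fold) lower in Hepa1-6.

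**Figure D4:**
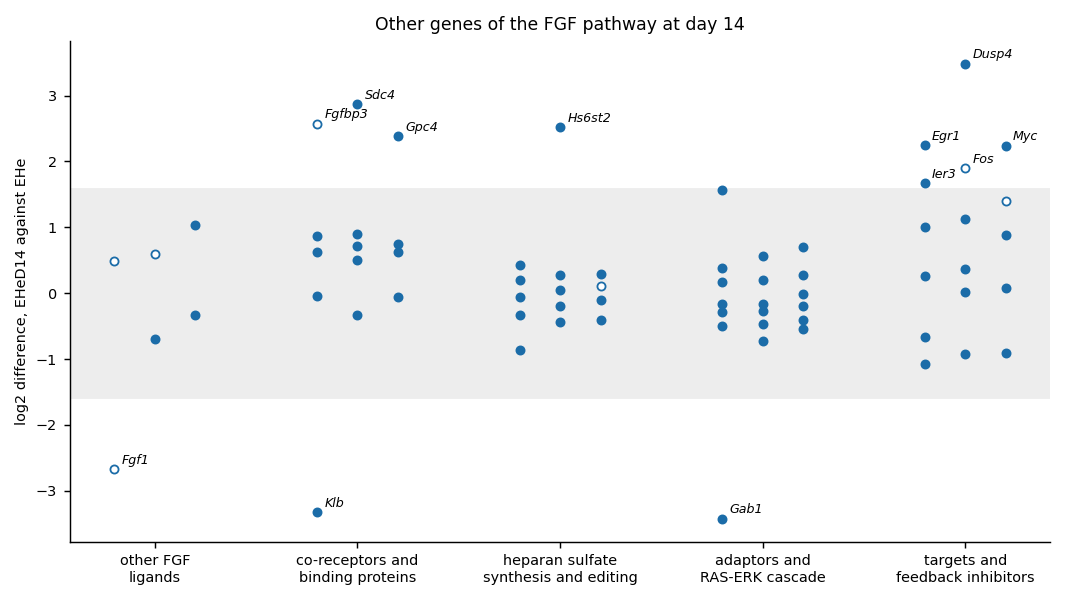
Log2 difference between EHeD14 and EHe for the other genes of the pathway, in 5 lists, with filled points for measured differences and open points for bounds against the detection limit. The grey band is 3-fold, pairs with no fold are left out, and the genes called at both days are named. The called genes lie mostly among targets and co-receptors, and the adaptor list lies inside the band except for Gab1.

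In a bulk culture, fewer cells of a type and less RNA per cell cannot be told apart. Of 8 primitive streak and mesoderm genes with a probe, 3 were called higher at both days, and their summed signal, in units of the 75th percentile, was 0.28 in EHe, 8.78 at day 7 and 8.08 at day 14. T (brachyury) went from 17.9, not well above background, to 4017 and 4367, Wnt3 from 18.8, also not well above background, to 5058 and 3976, and Eomes from 124 to 2013 and 2015. Mixl1, Kdr and Evx1 were not well above background on any array. Of 6 primed epiblast genes, 4 were called higher at both days and 1, Zic2, lower, and the summed signal was 5.85 in EHe, 46.3 at day 7 and 54.6 at day 14. Of 6 fibroblast and mesenchyme genes 4 were called higher at both days, with sums of 0.99, 4.88 and 5.42. Of 8 naive pluripotency genes 7 were called lower at both days, with sums of 197, 20.0 and 7.39. The core pluripotency list, with 4 genes that had a probe, gave sums of 44.8, 44.1 and 40.2. Its only call was Sox2, lower at both days, from 14333 in EHe to 4190 and 3300. The trophoblast and neural ectoderm lists were mixed, so their sums follow their brightest genes. Of 6 trophoblast genes the sums were 10.0, 4.11 and 4.57, but Krt7 (45.2-fold and 58.2-fold) and Hand1 (at least 27.6-fold and at least 35.2-fold) were higher at days 7 and 14, and only the bright Tfap2c was called lower, from 12673 in EHe to 920 and 375. Of 5 neural ectoderm genes the sums were 4.35, 13.6 and 13.3, with Nes (3.92-fold and 3.88-fold) and Zic1 (9.54-fold and 6.69-fold) higher and Pax6 lower, by at least 61.2-fold and at least 40.3-fold. Of 5 endoderm genes 0 were called at day 7 and 3 were called higher at day 14, with sums of 0.38, 0.58 and 1.41. For 7 hepatocyte genes it was 0.33, 0.53 and 0.26 in the hybrid against 227 in Hepa1-6, and none of them was called higher at either day. The part of these cell types in the FGF values was not tested.

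The genes most like each member were found as the 2 with the smallest Euclidean distance between log2 profiles over the 5 arrays, each profile centred on its mean and dim values set to the limit, among 11348 other genes with a range of at least 1. Fgf5 was nearest to Epha1 (0.77) and Fndc3c1 (0.90), and Fgf8 to Snorc (0.66) and Sema3e (0.78). Fgf15 was nearest to Col1a1, a fibrillar collagen chain (0.50), and Smpdl3a (0.58). Fgf17 was nearest to Ccno (0.55) and Timd2 (0.83). Among the receptors, Fgfr1 was nearest to Slc37a2 (0.21) and Defb36 (0.29), Fgfr2 to Stk40 (0.16) and Dvl2 (0.17), and Fgfr4 to Sox21 (0.25) and Sprr2g (0.29). Fgfr3, which itself ranged by under 1, was nearest to Eri3 (0.39) and Psmd3 (0.41). Fgf10 was nearest to Olfr272 (0.04) and Tmem255a (0.15), 2 genes that like it were near the limit on most arrays, so that the limit itself shapes the match. Each profile has only 5 points, and likeness here is a description.

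Neighbours on the chromosome were looked up in RefSeq gene order (GRCm38.p6), 4 protein-coding genes on each side, after the values had been seen. Of the 8 around Fgf5, 3 were called higher at both days, beside 5.65% of all genes, and they included the nearest gene on either side. Prdm8, which encodes a histone methyltransferase family protein, was at least 7.42-fold higher at day 7 and at least 7.25-fold higher at day 14. Cfap299 was at least 8.31-fold and at least 16.4-fold higher. Antxr2, an anthrax toxin receptor beyond Prdm8, was at least 16.1-fold and at least 15.1-fold higher, and unlike Fgf5 it had a high signal in Hepa1-6 (22600). Naa11, Bmp3, Prkg2 and Rasgef1b did not pass 3-fold, and Gk2 was not well above background on any array. Beside Fgf15, the ligand Fgf3 had a signal of 78.9 in ES, 45.1 in EHe, 88.4 and 65.5 at days 7 and 14, and 8.39 in Hepa1-6, of which those of EHe and Hepa1-6 were not well above background. None of the measured neighbours of Fgf15 was called at either day. Around the other members with such a list, 1 of 8 neighbours of Fgf8 (Kcnip2, 4.81-fold and 4.56-fold) and 2 of 8 of Fgf17 (Dok2, 17.1-fold and 15.1-fold, and Nudt18, 4.80-fold and 3.24-fold) were called higher at both days, although Fgf17 itself was not. Around Fgfr4 0 were called higher, and Mxd3 was 4.33-fold and 4.49-fold lower.

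**Figure D5:**
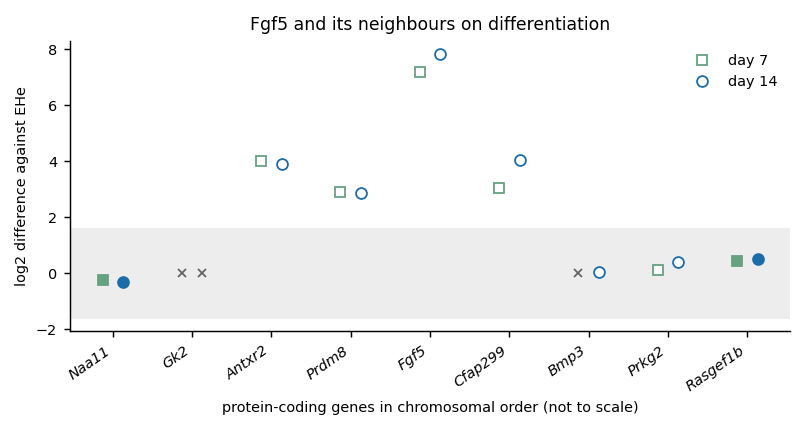
Log2 difference from EHe at day 7 (squares) and day 14 (circles) for Fgf5 and the 4 protein-coding genes on each side, in chromosomal order and not to scale. Filled symbols are measured differences, open symbols bounds against the detection limit, crosses mark no fold, and the grey band is 3-fold. Antxr2, Prdm8 and Cfap299 lie above the band with Fgf5.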

How the data were processed

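Total RNA of 5 cultures was hybridised to Agilent mouse oligonucleotide arrays. Per the labels the dye was Cy3 and differentiation was in monolayer with serum. The methods of the study name Cy5 and embryoid bodies, for which they list serum replacement and no serum. The authors deposited 1 scanner table per array from Agilent Feature Extraction 10.7.3.1 (45018 spots each), in which the processed signal is an intensity corrected for background, and no normalization between arrays was applied. The software's well-above-background and outlier flags, with other codes, were deposited in the same tables. A deposited series table held the same intensity values (largest relative difference 0).

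Control spots and outlier spots (73 in EHe to 174 in Hepa1-6) were left out. None was saturated. The log2 signal minus the array's 75th percentile was averaged per probe. A probe was well above background if most of its spots were. Of 41174 probes, 26888 were named through RefSeq records. A gene was read from the probe well above background on the most arrays, ties by the highest mean. The share of probes well above background was 54.6% (Hepa1-6) to 67.6% (EHeD7), and the number of arrays limits the precision.

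With 1 array per condition no model was fitted and the methods' t-test could not be run. The calling step was tested on simulated data with known folds, which gives no error rate for these arrays. Those folds were placed on bright probes only, so folds bounded by the detection limit were not covered. Named genes were the members, pathway genes past 3-fold in 1 direction at both days (at most 6 a list) or past 10-fold between the parents (at most 3 a list), and the 2 nearest profiles of each member. Spry1, Spry2, Spry4, Spred1, Spred2, Dusp6, Dusp9, Il17rd, Etv4, Etv5, the named cell type markers and all chromosomal neighbours were chosen after their values were seen. The members and lists were chosen with earlier results of these data known. Alternatives were normexp (offset 50, on the median spot signal), quantile normalization, median centring, the series table, no detection limit, a limit at the 5th percentile, both filters on dim probes, the mean of a gene's probes and a 2-fold threshold. Python 3.11.15, numpy 2.4.6, pandas 2.3.3, matplotlib 3.10.9, R 4.3.3 and limma 3.58.1 were used.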

Additional observations from a re-analysis of the deposited data

How the results depend on the processing

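Of the counts of members and pathway genes recomputed under an alternative, 157 stayed within 1.5 times and 23 did not, and no called difference changed sign. Fgf5, Fgf8 and Fgf15 stayed called higher at day 7 and day 14 under every alternative that could give them a value. With a 2-fold threshold the counts of members went from 1 to 2 lower in EHe than in ES, from 3 to 5 lower in Hepa1-6 than in ES, from 1 to 3 higher in EHe than in Hepa1-6, from 0 to 1 higher at day 14 than at day 7 and from 0 to 1 lower at day 7 than in EHe, and pathway genes went from 9 to 14 higher at day 14 and from 3 to 6 lower at day 7. With signals as measured and no detection limit, the same 5 counts of members became 2, 5, 3, 1 and 1. With median centring, quantile normalization and the normexp background alike, members higher in EHe than in Hepa1-6 went from 1 to 0 and those lower in Hepa1-6 than in ES from 3 to 1. With the mean of a gene's probes the former also went to 0. Pathway genes higher at day 7 went from 10 to 6 with normexp. The cause was not tested. Asking for all 5 arrays well above background leaves out Fgf5, Fgf10, Fgf17 and Fgfr2 by construction, and gave 0 members lower in EHe and 1 lower in Hepa1-6 than in ES, and 6 pathway genes higher at day 7. No paired analysis was possible because the design has single arrays without replicate numbers, and for the same reason none could be left out. Signals near the detection limit carry only a bound, so Fgf10, Fgf17 after fusion and Fgfr2 in Hepa1-6 have no measured order there.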
